A study of Homo sapiens with 8 samples.

Results

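The vitamin D and parathyroid hormone axis was followed through 8 genes of the 58780 annotated in the tables: CYP24A1, CYP27B1 and VDR for vitamin D, PTHLH, PTH and PTH1R for parathyroid hormone signalling, and CASR and GCM2 for the parathyroid gland. The rows were taken by gene symbol. CYP24A1 and PTHLH were chosen by their counts in these libraries, near 0 in the first 3 stages and higher in the last, so their levels are given as a description with no test. The other 6 were named for their role, and the question put to them was whether genes of parathyroid fate accompany the late pair.

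The libraries came from H1, an established human embryonic stem cell line, carried in culture from undifferentiated cells (hESC) to the definitive endoderm (hDE), then to endoderm of anterior foregut (hAFE) and of pharyngeal foregut (hPFE) character, with 2 libraries at each of the 4 stages. No genotype, agent or dose is given in the labels, which are also silent on whether a stage's 2 libraries were separate cultures. P-values thus measure at most how far these libraries spread, and that spread may be technical. A re-analysis of earlier data is marked for hESC and hDE, and not for hAFE and hPFE. Stage and origin therefore cannot be told apart in hAFE against hDE or in hPFE against hESC. In hDE against hESC and in hPFE against hAFE the libraries compared carry the same mark. The mark does not say whether they were prepared together, so a batch between those stages cannot be told apart from stage either. All values are bulk RNA, in which fewer cells of a type and less RNA per cell cannot be told apart.

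Vitamin D is hydroxylated in steps to its active hormone, calcitriol. CYP27B1 makes calcitriol, VDR is the nuclear receptor that binds it, and CYP24A1 starts its breakdown and is a classical target of the receptor. Parathyroid hormone, encoded by PTH, and the related peptide encoded by PTHLH both signal through PTH1R, mainly by way of Gs and cyclic AMP. PTH is a hormone of the parathyroid gland, whereas PTHLH is made by many epithelia and acts locally, for example in cartilage, skin and breast. CASR lets parathyroid cells sense calcium. The parathyroid arises from endoderm of the third pharyngeal pouch, and GCM2 is the transcription factor that defines its fate.

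The windows before the start sites of the genes that mark the parathyroid are shown here because the stage labelled pharyngeal gave almost no reads from them. The set of RefSeq start windows used here (GRCh38.p14) held 6 windows for 5 of the 8 genes. These were PTHLH, PTH, CASR, GCM2 and, with 2 windows, PTH1R. CYP24A1, CYP27B1 and VDR had no window in that set, so none of the motifs below was sought for them. The 250 bases upstream of the start are printed 5′ to 3′ on the strand of the gene. Capitals mark CpG dinucleotides. They lie at chr6:10882042-10882291 for GCM2 (minus strand), chr11:13496182-13496431 for PTH (minus strand) and chr3:122183418-122183667 for CASR (plus strand).
GCM2: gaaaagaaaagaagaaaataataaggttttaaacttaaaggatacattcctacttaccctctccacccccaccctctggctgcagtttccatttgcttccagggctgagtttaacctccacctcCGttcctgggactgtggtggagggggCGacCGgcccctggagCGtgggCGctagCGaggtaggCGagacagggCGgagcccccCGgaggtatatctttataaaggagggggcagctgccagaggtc
PTH: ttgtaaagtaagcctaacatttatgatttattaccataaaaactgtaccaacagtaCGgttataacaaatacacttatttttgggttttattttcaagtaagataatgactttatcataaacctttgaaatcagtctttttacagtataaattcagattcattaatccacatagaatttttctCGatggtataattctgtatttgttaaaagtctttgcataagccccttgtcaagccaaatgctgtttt
CASR: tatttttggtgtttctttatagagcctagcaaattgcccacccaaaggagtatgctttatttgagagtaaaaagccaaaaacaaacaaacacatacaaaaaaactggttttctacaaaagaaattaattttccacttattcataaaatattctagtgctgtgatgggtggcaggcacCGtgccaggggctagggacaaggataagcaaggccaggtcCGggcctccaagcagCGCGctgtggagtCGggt
GCM2 had 9 CpG and 55.2% G and C, PTH had 2 and 28%, and CASR had 5 and 43.2%. Over all 35116 RefSeq windows the medians were 11 CpG and 58%. The PTHLH window, on the minus strand of chromosome 12 from 27969977 to 27970226, had 19 CpG and 61.6% and overlaps exons of other annotated PTHLH transcripts. Windows were searched on both strands over 300 bases, 50 of them after the start. The search used the hexamer AGGTCA, which VDR and related receptors bind, with its variants AGTTCA as well as GGTTCA together with GGGTCA, a pair of these hexamers in the same direction with 3 bases between, the cyclic AMP element TGACGTCA, its core TGACG, and the GCM factor motif ATGCGGGT. None of the 6 windows held any of them. Over all windows, 38.6% held a hexamer, 0.0740% the pair, 1.85% the cyclic AMP element, 24.6% the core, which the element contains, and 0.259% the GCM motif.

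Across the 8 libraries, deposited counts summed to between 12687161 and 17802900 and mitochondrial ribosomal RNA took 10.6% to 18.4% of them, most in hPFE replicate 2. Levels are CPM, counts scaled to a common library total with TMM factors, and comparisons between genes use TPM, which allows for transcript length. POU5F1, the pluripotency factor, stood at 857 and 941 CPM in hESC, and SOX17, a factor of definitive endoderm, at 126 and 148 CPM in hDE. The foregut factor FOXA2 was at 27.6 and 27.6 CPM in hDE, 41.1 and 17.7 in hAFE and 22.9 and 12.8 in hPFE. PAX9, a pharyngeal endoderm factor, was at 25.3 and 21.8 in hAFE and 95.5 and 28.5 in hPFE. TBX1, another pharyngeal factor, was at 0.726 and 5.99 in hAFE and 1.21 and 1.95 in hPFE. None of these 3 landmarks was called between hAFE and hPFE (edgeR adjusted p = 0.301, 0.160 and 0.516), so they do not set the last stage apart.

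The 2 hPFE libraries differed in genes that bear on the axis. Of 11 cartilage and mesenchyme markers, the summed level was 2529 CPM in hPFE replicate 1 and 620.6 in replicate 2, and COL3A1, a fibrillar collagen, stood at 1230 and 29.7. Of 11 trophoblast and amnion markers, the summed level was 33.6 CPM in replicate 1 and 192.2 in replicate 2, of which KRT7 made up 12.4 and 161.6. Among the trophoblast genes CGB3, GCM1 and HSD3B1 had at most 0.216 CPM in either, while ELF5 had 5.21 and 7.997, TFAP2C 3.27 and 8.79, GATA3 5.03 and 4.90, and CGA 0.0606 and 2.02. Over 10 squamous and surface ectoderm markers the sums were 45.2 and 65.9 CPM, with TP63 at 14.5 and 41.1, while KRT14 was at 0 in all 8 libraries and KRT5 reached 0.0721. Of the 6 tested squamous markers 1, TP63, was higher in replicate 2, and their median log2 difference was −0.26. CYP24A1, PTHLH, VDR and PTH1R differed between the same libraries, and the part of these markers in those values was not tested.

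**Figure D1:**
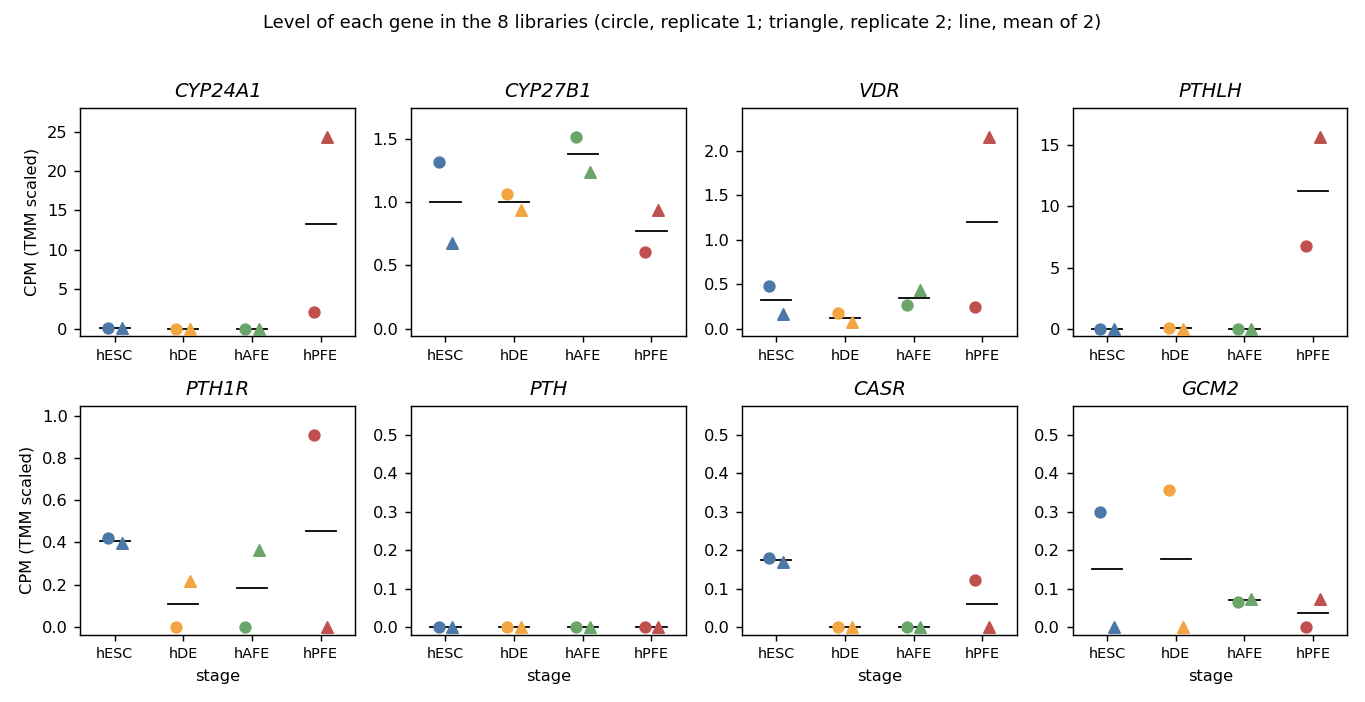
Level of the 8 genes, in CPM after TMM scaling (vertical axes, each with its own range), at the 4 stages (horizontal axes). Circles are replicate 1, triangles replicate 2 and lines the mean of 2; CYP24A1 and PTHLH leave 0 at hPFE, where CYP24A1 reads 2.18 and 24.4, and PTH stays at 0 in all 8 libraries.

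CYP24A1, the catabolic enzyme (ENSG00000019186.9, hg38 chr20:54153449-54173973, minus strand), was close to absent until the last stage. It gave 1 and 1 counts in hESC, 0 and 0 in hDE, 0 and 0 in hAFE, and 36 and 338 in hPFE. In CPM that was 0.060 and 0.056 in hESC and 2.18 and 24.4 in hPFE, a mean of 13.3 ± 15.7 (SD, n = 2). Both hPFE libraries stood above all 6 earlier ones, and they stood far apart from each other. Their ratio was 11.2, with an exact 95% interval of 7.90 to 16.2 that covers counting error only. The log2 difference, replicate 2 minus replicate 1 with its sign kept, was 3.40 after a prior count of 2. It exceeded that of 99.8% of tested genes, where genes higher in replicate 1 count as lower whatever their size. Against the 2 counts of hESC, hPFE was higher by a ratio of 212 (95% interval 58.2 to 1754). With a floor of 3 counts put in for a stage at 0, the ratio was 103 to hDE and 118 to hAFE. The exact 95% lower bounds, which cover counting error only, were 83.25 and 95.8. Without hPFE replicate 2, what remains is the 2.18 CPM of replicate 1.

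PTHLH, the locally acting peptide (ENSG00000087494.15, chr12:27958084-27972705, minus strand), had the same course with closer replicates. It gave 0 and 0 counts in hESC, 1 and 0 in hDE, 0 and 0 in hAFE, and 112 and 218 in hPFE. The hPFE level was 6.79 and 15.7 CPM, a mean of 11.2 ± 6.31 (SD, n = 2). All earlier libraries lay below 0.1 CPM. Replicate 2 exceeded replicate 1 by a ratio of 2.31 (95% interval 1.83 to 2.93). The log2 difference, again with its sign kept, was 1.19 and exceeded that of 96.6% of tested genes. With the floor of 3 counts put in, the PTHLH ratio of hPFE was 124.5 to hESC and 104.5 to hAFE. The 95% lower bounds were 100.7 and 84.47. The ratio to the 1 count of hDE was 272 (95% interval 48.5 to 10790).

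Few genes had so late a course. By a criterion set after the values were seen, 63 of 58780 genes, 41 of them protein coding, had at most 3 counts summed over the 6 earlier libraries and more than 3 in each hPFE library. Ranked by summed hPFE counts within the 63, CYP24A1 was at place 2 and PTHLH at place 3. The 2 genes were chosen for this same pattern, so these places describe them and are no evidence that they stand out. Both were of middling abundance in hPFE: 58.9% of tested genes had a lower mean TPM than CYP24A1 and 61.6% a lower one than PTHLH.

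CYP27B1, the activating enzyme (chr12:57762334-57768986, minus strand), was low at every stage. It gave 22 and 12 counts in hESC, 12 and 13 in hDE, 23 and 17 in hAFE, and 10 and 13 in hPFE. The stage means were 0.999 ± 0.454, 1.00 ± 0.0895, 1.38 ± 0.196 and 0.771 ± 0.234 CPM (SD, n = 2 each). The hPFE libraries lay below both hAFE libraries and overlapped those of hESC. It was the 1 gene of the 6 named by role that passed the filter on low counts, and 0 of 1 was called in each of the 4 comparisons by edgeR's quasi-likelihood test with Benjamini-Hochberg adjustment over 17446 genes at 0.05. Among all genes tested, 41.9% were called in hDE against hESC, 30.2% in hAFE against hDE, 7.49% in hPFE against hAFE and 45.0% in hPFE against hESC. The log2 fold changes were 0.0077 (SE 0.497), 0.46 (SE 0.493), −0.84 (SE 0.496) and −0.37 (SE 0.500), with edgeR adjusted p = 0.993, 0.516, 0.323 and 0.568. At an unadjusted p under 0.05 the count was 0 in all 4 comparisons by edgeR and by DESeq2, and by limma on log2(TPM + 1) it was 1 in hAFE against hDE and 1 in hPFE against hAFE. In TPM it stood at 0.48 and 0.61 in hAFE, above the 0.16 and 0.29 of hDE and the 0.15 and 0.33 of hPFE. On log2(TPM + 1) CYP27B1 changed by 0.336 in hAFE against hDE, where the median of all genes itself moved by 0.496. In hPFE against hAFE it changed by −0.32, beside a median of 0.137.

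VDR, the receptor (chr12:47841537-47943048, minus strand), gave 8 and 3 counts in hESC, 2 and 1 in hDE, 4 and 6 in hAFE, and 4 and 30 in hPFE. The higher hPFE value came from 1 library: hPFE replicate 2 stood at 2.16 CPM, while replicate 1, at 0.242, lay within the range of the earlier libraries, 0.0723 to 0.480. The ratio between the hPFE replicates was 8.92 (95% interval 3.14 to 34.8), and replicate 2 was also the library richer in CYP24A1. Summed counts in hPFE exceeded those of hAFE by a ratio of 3.23 (95% interval 1.56 to 7.33) and those of hESC by 3.50 (1.73 to 7.65). These intervals cover counting error only and leave out the spread between replicates, so they do not test a difference between stages. VDR did not pass the count filter. The fit with no filter called 3234 genes in hPFE against hAFE where the filtered fit called 1306. It moved the edgeR adjusted p of COL3A1, far apart in the hPFE replicates, from 0.0401 to 7.43e-171. Its p-values therefore cannot be read as measuring the spread between replicates. In that fit VDR was the 1 gene of 5 fitted that had an unadjusted p under 0.05 in hPFE against hAFE and in hPFE against hESC. VDR was not called in either. There, over 32980 genes, edgeR gave a log2 fold change of 1.75 (SE 0.773, adjusted p = 0.169) against hAFE. Against hESC the same edgeR fit gave 1.86 (SE 0.763, adjusted p = 0.0546). It was called in hPFE against hESC when hPFE replicate 1 was left out (log2 fold change 2.71, edgeR adjusted p = 0.0264).

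PTH1R, the receptor for both peptides (chr3:46877746-46903799, plus strand), gave 7 and 7 counts in hESC, 0 and 3 in hDE, 0 and 5 in hAFE, and 15 and 0 in hPFE. The hPFE libraries went opposite ways to those of the ligand: replicate 1, with less PTHLH, held 0.909 CPM of the receptor, and replicate 2 held none. Replicate 1 was at least 4.21-fold above the floor of 3 counts in replicate 2. With no count filter, edgeR adjusted p was 0.298 in hDE against hESC, 0.890 in hAFE against hDE, 0.590 in hPFE against hAFE and 0.963 in hPFE against hESC. As for VDR, p-values of that fit cannot be read as measuring the spread between replicates. PTH2R, a related receptor, had 0 in both hPFE libraries, and the other PTH family ligand, PTH2, was at 0 in all 8.

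The parathyroid genes proper did not accompany the late pair at a level these libraries could measure. PTH, the hormone (chr11:13492055-13496181, minus strand), had 0 counts in all 8 libraries, which allows up to 0.0253 CPM over their sum, and up to 0.0988 CPM over the hPFE libraries. GCM2, the fate factor (chr6:10873223-10881941, minus strand), gave 5 and 0 counts in hESC, 4 and 0 in hDE, 1 and 1 in hAFE, and 0 and 1 in hPFE. Most of its 12 counts were thus in the stages before the foregut, and its hPFE total lay under the floor of 3 counts. CASR, the calcium sensor (chr3:122183683-122291629, plus strand), gave 3 and 3 counts in hESC, none in hDE or hAFE, and 2 and 0 in hPFE. With no count filter, edgeR adjusted p for GCM2 was 1 in hDE against hESC, 0.752 in hAFE against hDE, 0.969 in hPFE against hAFE and 0.567 in hPFE against hESC. Here too, p-values of that fit cannot be read as measuring the spread between replicates. At these counts a difference between stages was not detectable in GCM2 or CASR.

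Ordered by TPM in hPFE, the genes ran PTHLH at 7.09 ± 5.13 (SD, n = 2), CYP24A1 at 6.32 ± 7.82, CYP27B1 at 0.24 ± 0.127, VDR at 0.22 ± 0.269, PTH1R at 0.19 ± 0.269, GCM2 at 0.015 ± 0.0212, CASR at 0.005 ± 0.00707 and PTH at 0. GCM2, CASR and PTH rest on 1, 2 and 0 counts in hPFE, under the floor of 3, and are not ranked among themselves. PTHLH and CYP24A1 did not differ beyond their spread, nor did CYP27B1, VDR and PTH1R among themselves. The step between CYP24A1 and CYP27B1 held in each library, since the lower CYP24A1 value, 0.79 TPM, exceeded the higher CYP27B1 value, 0.33.

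The wider markers of the parathyroid also stayed under 1 CPM each in hPFE. Of 8 markers, PTH, CCL21 and SCGN were at 0 in all 8 libraries, and CHGA and TMEM163 passed the filter. The summed level of the 8 was 42.3 and 58.9 CPM in hESC, nearly all of it CHGA, a protein of secretory granules, and 1.09 and 1.08 in hPFE. CHGA fell from 49.3 CPM in hESC to 0.343 ± 0.228 in hPFE (log2 fold change −7.18, edgeR adjusted p = 5.64e-05), across libraries of different origin. In hPFE against hAFE 0 of the 2 tested markers were called, with CHGA at −0.31 (edgeR adjusted p = 0.779) and TMEM163 at 0.0027 (edgeR adjusted p = 1). KL, the FGF23 co-receptor, had 0.121 and 0.216 CPM in hPFE.

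**Figure D2:**
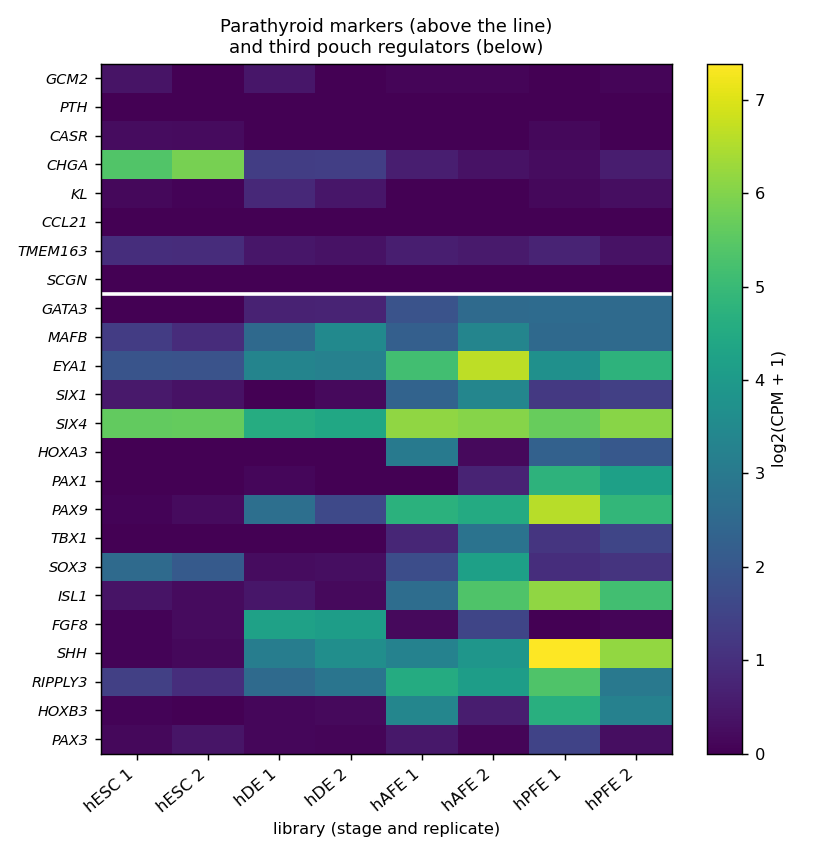
Level of 8 parathyroid markers (above the white line) and 16 of the 17 regulators of the third pouch and parathyroid (below), one row per gene and one column per library, colour giving log2(CPM + 1). The marker rows stay dark in both hPFE libraries, where their summed level was 1.09 and 1.08 CPM, while PAX1 and SHH brighten there.

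Regulators of earlier pouch development were detected in hPFE. Of 17 regulators of the third pouch and parathyroid, 16 were tested. In hAFE against hDE 10 rose and 1 fell, beside 15.0% of all genes higher and 15.2% lower, and the median log2 fold change was 2.84 against 0.012 over all genes, across libraries of different origin. That count became 5 and 0 without hDE replicate 1, and 3 and 0 without hDE replicate 2. In hPFE against hAFE 2 rose and 0 fell, beside 4.77% of all genes higher and 2.71% lower, with a median of −0.12 against −0.03, and without hAFE replicate 1 it was 4 and 4. PAX1, a pouch endoderm factor, rose from 0 and 0.657 CPM in hAFE to 26.4 and 17.3 in hPFE (log2 fold change 6.07, SE 0.932, edgeR adjusted p = 0.0161), a call that DESeq2 did not make (adjusted p = 0.150). SHH, a morphogen of pharyngeal endoderm, rose from 8.71 and 13.7 to 167 and 72.6 CPM (3.42, SE 0.428, edgeR adjusted p = 0.0062). SIX4, a homeobox factor that was well expressed, had 70.0 and 65.6 CPM in hAFE and 49.6 and 65.8 in hPFE and did not pass (edgeR adjusted p = 0.393). GATA3, which acts with GCM2 on PTH, had 2.71 and 4.82 CPM in hAFE and 5.03 and 4.90 in hPFE (edgeR adjusted p = 0.552).

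Organs next to the parathyroid were checked through their markers in hPFE against hAFE, where 4.77% of all genes were higher and 2.71% lower. Of 9 thymus markers 5 were tested and 1 rose, CXCL12, a chemokine, from 1.72 to 9.16 ± 7.36 CPM (log2 fold change 2.41, edgeR adjusted p = 0.0427), a call lost without hAFE replicate 1 or 2 (edgeR adjusted p = 0.0937 and 0.111). The thymic master factor FOXN1 had 0.121 and 0.144 CPM in hPFE. Of 9 thyroid and ultimobranchial markers 5 were tested and 1 rose, FOXE1, a factor of thyroid and oral endoderm, from 2.98 to 46.5 ± 28.8 CPM (3.98, edgeR adjusted p = 0.0224), a call lost without hPFE replicate 2 (3.14, edgeR adjusted p = 0.0532). NKX2-1 had 0.727 and 0.0721 CPM in hPFE and PAX8 had 0.303 and 0, so the factors that define thyroid with FOXE1 stayed under 1 CPM.

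The other genes of vitamin D handling showed no common shift at the last stage. Of 21 genes of vitamin D metabolism and reception beside CYP24A1, 18 were tested. In hPFE against hAFE 1 rose and 1 fell, beside 4.77% of all genes higher and 2.71% lower. The median was −0.03, equal to that of all genes. RXRG, a partner of VDR, stood at 0 and 0.073 CPM in hAFE and 3.70 and 0.721 in hPFE (log2 fold change 5.70, SE 1.23, edgeR adjusted p = 0.0347). LRP2, which takes up vitamin D with its carrier protein, fell from 62.8 and 108 CPM to 29.3 and 41.9 (−1.26, SE 0.306, edgeR adjusted p = 0.0492). Of 11 alternatives 6 lost the RXRG call, including those without hAFE replicate 1, hAFE replicate 2 or hPFE replicate 1 (edgeR adjusted p = 0.103, 0.0628 and 0.0647). For LRP2 7 did, including those without hAFE replicate 2, hPFE replicate 1 or hPFE replicate 2 (edgeR adjusted p = 0.139, 0.127 and 0.0502). PDIA3 and BAZ1B did not pass. The partner RXRA had 31.2 and 26.3 CPM in hPFE. In hDE against hESC 5 rose and 1 fell, beside 20.3% of all genes higher and 21.6% lower, and leaving out any 1 of the 4 libraries compared left 2 to 3 that rose. RXRG rose there from 0.0282 to 8.27 ± 2.52 CPM (7.79, SE 1.16, edgeR adjusted p = 0.00174), and CYP27A1, a vitamin D hydroxylase of the liver, from 4.78 to 23.3 ± 1.87 (2.29, SE 0.489, edgeR adjusted p = 0.00824), the latter lost without hESC replicate 2 (edgeR adjusted p = 0.0718) or hDE replicate 1 (edgeR adjusted p = 0.0515). In hAFE against hDE 2 rose and 2 fell, beside 15.0% of all genes higher and 15.2% lower, and leaving out any 1 of the 4 libraries compared left 1 that rose. LRP2 rose from 6.79 to 85.2 ± 31.7 CPM (3.66, SE 0.346, edgeR adjusted p = 0.000345), and RXRG fell back to 0.0365 (−7.58, edgeR adjusted p = 0.00267). In hPFE against hESC 6 rose and 1 fell, beside 21.6% and 23.3% of all genes, and 2 rose without hESC replicate 1. CUBN, the co-receptor of LRP2, rose from 0.439 to 3.50 ± 0.241 CPM (2.98, edgeR adjusted p = 0.000933).

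Among genes that calcitriol is known to induce in other cells, some rose strongly and most did not pass. Of 29 such genes beside CYP24A1, 21 were tested. In hPFE against hAFE 4 rose and 2 fell, beside 4.77% of all genes higher and 2.71% lower. The median was 0.60 against −0.03 over all genes. Without hAFE replicate 2, hPFE replicate 1 or hPFE replicate 2, 1 fell. SPP1, the secreted phosphoprotein osteopontin, stood at 0.726 and 0 CPM in hAFE and at 137 and 251 in hPFE (log2 fold change 8.97, SE 0.731, edgeR adjusted p = 0.00153). This call held in all 11 alternatives. CDKN1A, the cell cycle inhibitor p21, rose from 34.4 and 49.4 to 127 and 284 CPM (2.29, SE 0.381, edgeR adjusted p = 0.0154), and THBD, thrombomodulin, from 0.198 and 0.511 to 2.24 and 5.26 (3.38, SE 0.676, edgeR adjusted p = 0.028). The THBD call was lost without hAFE replicate 1 (edgeR adjusted p = 0.0865) and without hPFE replicate 2 (edgeR adjusted p = 0.067). IGFBP3, an IGF binding protein, had 95.3 and 17.6 CPM in hAFE and 88.5 and 396 in hPFE and did not pass (edgeR adjusted p = 0.157), though it did without hAFE replicate 1 (edgeR adjusted p = 0.0386) and with no count filter. LRP5, a WNT co-receptor, did not pass either. CAMP and S100G, myeloid and intestinal targets, were at 0 in all 8 libraries, and TRPV6, a calcium channel, had 0.182 and 1.51 CPM in hPFE. The summed level of the 29 was 681 CPM in hPFE replicate 1 and 1215 in replicate 2, the library with more CYP24A1 and VDR. Gene by gene there was no such order: 9 of the 21 were higher in replicate 2, with a median log2 difference of −0.03, beside 48.9% of all tested genes and a median of 0.

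**Figure D3:**
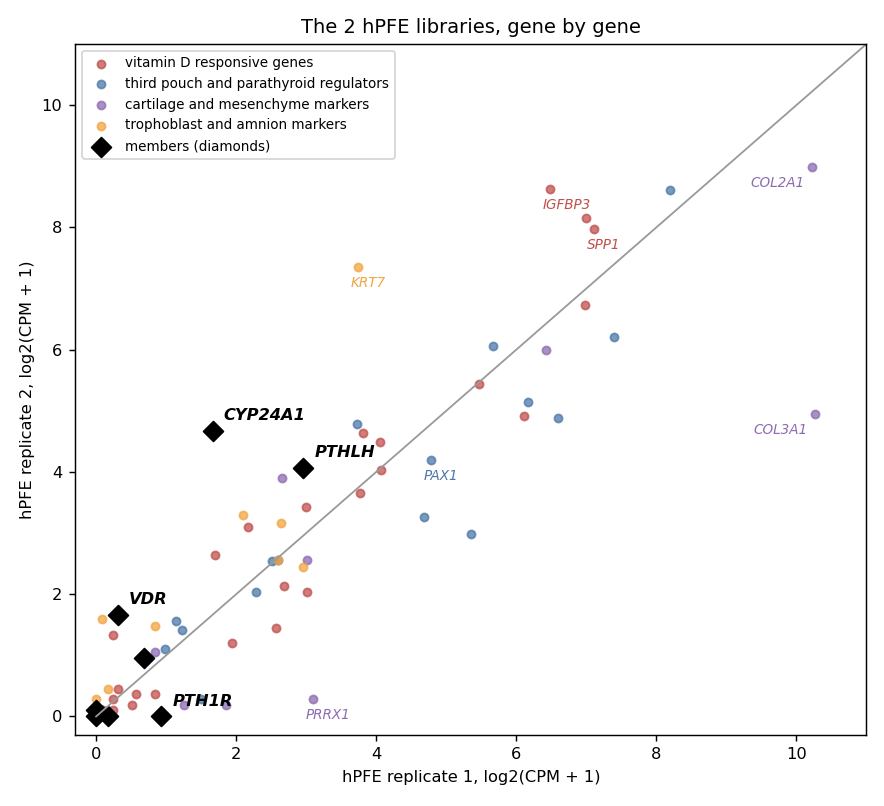
Level in hPFE replicate 1 (horizontal) against replicate 2 (vertical), both as log2(CPM + 1), for the 8 genes of the axis (black diamonds) and 4 gene lists (coloured points); the grey line marks equal levels. CYP24A1 (2.18 and 24.4 CPM) and VDR lie above the line with KRT7, and PTH1R lies below it with COL3A1 and PRRX1.

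Signalling genes downstream of PTH1R were expressed throughout, and at the last stage the share called was no larger than over all genes. Of 25 genes of PTH and PTHrP reception and Gs signalling beside PTHLH, 21 were tested. In hPFE against hAFE 1 rose and 0 fell, beside 4.77% of all genes higher and 2.71% lower, with a median of 0.02. ADCY9, an adenylyl cyclase, rose from 3.83 and 3.65 to 9.52 and 7.92 CPM (log2 fold change 1.22, SE 0.242, edgeR adjusted p = 0.0274), though 4 of 11 alternatives lost it, among them those without hAFE replicate 1 or 2 (edgeR adjusted p = 0.0628 and 0.0708). GNAS, which encodes the Gs subunit, was at 686 ± 164 CPM in hPFE (edgeR adjusted p = 0.28), and PRKAR1A, a regulatory subunit of protein kinase A, at 195 ± 9.68 (edgeR adjusted p = 0.184). In hPFE against hESC 8 rose and 5 fell, beside 21.6% of all genes higher and 23.3% lower, across libraries of different origin. That became 4 and 2 without hESC replicate 1, 3 and 2 without hESC replicate 2, 7 and 3 without hPFE replicate 2, and 7 and 1 by limma on log2(TPM + 1).

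Of 14 genes that cyclic AMP induces, all tested, 2 rose and 0 fell in hPFE against hAFE, with a median of 0.22. Over all genes 4.77% were higher and 2.71% lower. JUNB, an AP-1 factor, rose from 1.72 and 1.82 to 16.6 and 9.73 CPM (log2 fold change 2.89, SE 0.369, edgeR adjusted p = 0.00659). SIK1, a kinase that limits CREB coactivators, rose from 2.77 and 1.75 to 9.21 and 17.4 CPM (2.55, SE 0.408, edgeR adjusted p = 0.0137). The well expressed DUSP1 and CREM did not pass. In hPFE against hESC 6 rose and 0 fell, beside 21.6% of all genes higher and 23.3% lower, with a median of 1.78 against 0.02 over all genes, across libraries of different origin.

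Calcium and phosphate handling moved in both directions. Of 25 genes 16 were tested. In hPFE against hAFE 4 rose and 3 fell, beside 4.77% of all genes higher and 2.71% lower. Among the 3 that fell were SLC8A1 (log2 fold change −1.30, edgeR adjusted p = 0.0153) and ATP2B1 (−0.85, edgeR adjusted p = 0.0484). Both are also counted among the calcitriol-induced genes. The SLC8A1 call was lost in 2 of 11 alternatives and the ATP2B1 call in 7. SLC34A2, a sodium phosphate cotransporter, rose from 0.264 and 0.146 to 6.42 and 7.13 CPM (log2 fold change 4.97, SE 0.444, edgeR adjusted p = 0.00213), a call held in all 11 alternatives. GALNT3, which glycosylates FGF23, rose from 9.77 and 5.33 to 28.6 and 34.4 CPM (2.06, SE 0.363, edgeR adjusted p = 0.0191). CALB1, a calcium-binding protein also counted among the calcitriol-induced genes, rose from 1.12 and 1.31 to 5.39 and 3.39 CPM (1.85, SE 0.286, edgeR adjusted p = 0.0124). The stanniocalcins STC1 and STC2 did not pass.

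**Figure D4:**
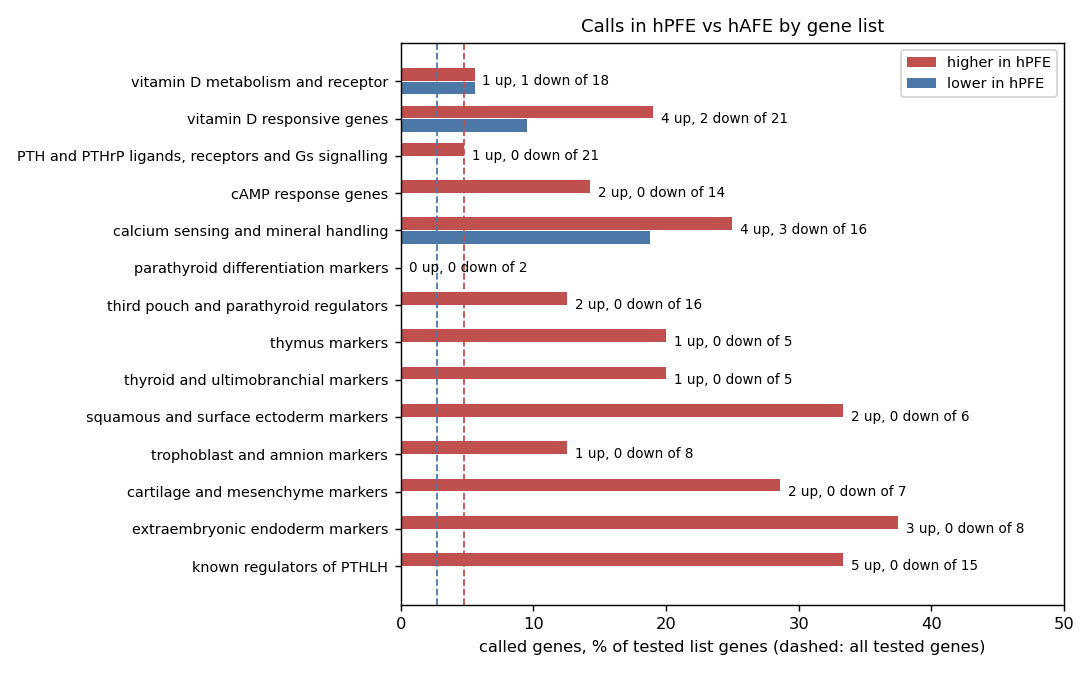
Share of tested genes in each list that were called higher (red) or lower (blue) in hPFE than in hAFE, in percent, with the counts beside each bar; dashed lines give the same share over all 17446 tested genes, 4.77% and 2.71%. CYP24A1 and PTHLH are left out of their lists, some genes stand in more than 1 list, and the parathyroid markers have 0 called of 2 tested.

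Tissues outside the pharynx in which PTHLH is known were also read in hPFE against hAFE, where 4.77% of all genes were higher and 2.71% lower. Of 10 squamous and surface ectoderm markers 6 were tested and 2 rose. GRHL3, an epithelial barrier factor, rose from 1.32 and 1.82 to 18.2 and 16.9 CPM (log2 fold change 3.48, SE 0.324, edgeR adjusted p = 0.0039), and SFN, an epithelial 14-3-3 protein, from 0.033 to 1.89 ± 0.84 (5.47, edgeR adjusted p = 0.0108). Of 11 trophoblast and amnion markers 8 were tested and 1 rose, KRT7, at 3.23 and 1.75 CPM in hAFE (5.11, SE 1.09, edgeR adjusted p = 0.0341), lost in 5 of 11 alternatives, among them those without hAFE replicate 1 or 2 (edgeR adjusted p = 0.0788 and 0.0955). Of 11 cartilage and mesenchyme markers 7 were tested and 2 rose, the collagens COL1A1 (3.70, edgeR adjusted p = 0.000857) and COL3A1 (6.89, edgeR adjusted p = 0.0401), the latter lost without hAFE replicate 1 or 2 (edgeR adjusted p = 0.118 and 0.0878). COL2A1, the main collagen of cartilage, had 622 and 756 CPM in hAFE and 1190 and 507.7 in hPFE and did not pass (0.30, edgeR adjusted p = 0.691). SOX9, a chondrocyte factor also found in endoderm, had 5.27 and 13.9 CPM in hPFE, and COL10A1 and IHH, genes of later chondrocytes, had at most 0.121. Of 10 extraembryonic endoderm markers 8 were tested and 3 rose, SPARC, COL4A1 and THBD, while TTR and AFP had at most 0.424 CPM in hPFE.

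Of 16 genes known to regulate PTHLH in other cells, 15 were tested. In hPFE against hAFE 5 rose and 0 fell, beside 4.77% of all genes higher and 2.71% lower, with a median of 0.61 against −0.03. Their part in the level of PTHLH was not tested. Besides SHH these included TGFB1, a growth factor, from 0.462 and 0.730 to 8.12 and 4.75 CPM (log2 fold change 3.43, SE 0.465, edgeR adjusted p = 0.00796), and ETS1, a transcription factor, from 6.27 and 2.41 to 18.1 and 25.1 (2.31, SE 0.392, edgeR adjusted p = 0.0169). GLI1 and SMAD3 also rose, and their calls were lost in 3 and 4 of 11 alternatives. Across all lists, 31 different genes were called in hPFE against hAFE. Of these, COL1A1, GRHL3, SLC34A2, SPARC and SPP1 kept their call in all 11 alternatives, and 26 were lost when the fit held only the 4 libraries compared.

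The genes whose pattern over the 8 libraries was most like that of the late pair were sought among 14703 tested genes with a mean of at least 1 CPM in hPFE, by Pearson's r of log2 CPM. For CYP24A1 they were SMYD3 (r = 0.985), RASGRP3 (0.983), PENK (0.983), ITGA2 (0.983) and VAPA (0.979). ITGA2, a collagen-binding integrin, had at most 18.6 CPM in the earlier libraries and 143 and 457 in hPFE. PENK, the enkephalin precursor, had 0.849 and 3.96 CPM in hPFE. For PTHLH they were SERPINB7 (0.996), NIPAL4 (0.994), MIR181A1HG (0.991), VIP (0.991) and S100A11 (0.985). SERPINB7, a protease inhibitor of skin, had 0 in all 6 earlier libraries and 3.82 and 7.13 CPM in hPFE, and NIPAL4, a gene of the epidermis, had 5.52 and 10.9. VIP, a neuropeptide precursor, had 3.39 and 3.75. All points share the 8 libraries and the r of such genes rests on the 2 hPFE libraries, so these values describe likeness only.

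**Figure D5:**
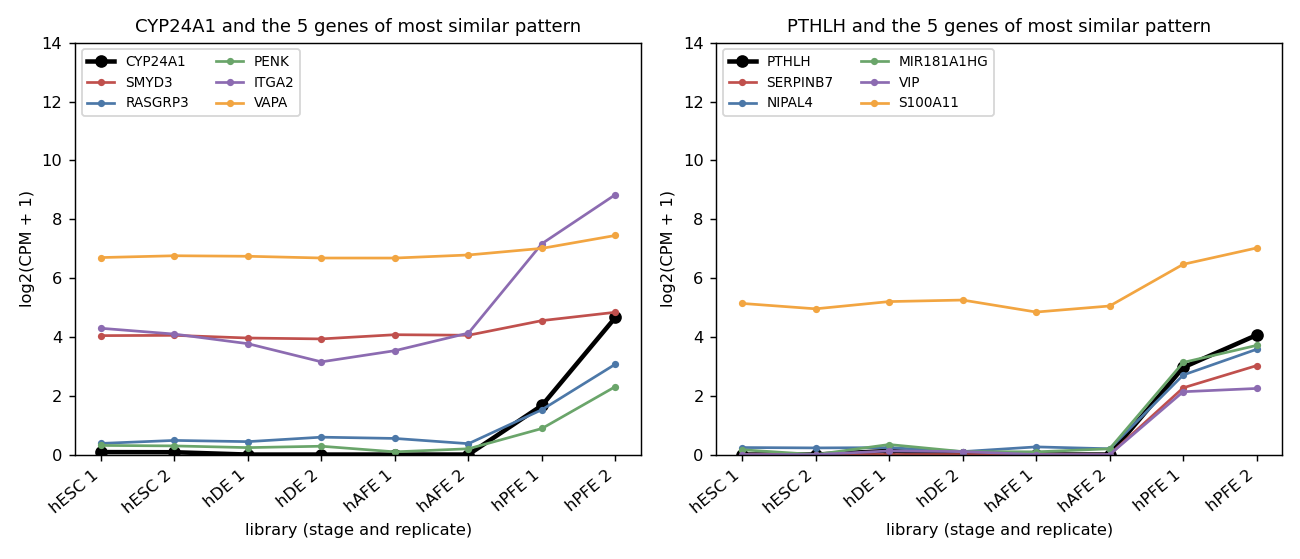
Level, as log2(CPM + 1), of CYP24A1 (left) and PTHLH (right) in black, each with the 5 genes of highest Pearson r in colour, over the 8 libraries on the horizontal axis. The curves part from their earlier level at hPFE, with CYP24A1 steeper between the 2 hPFE libraries than PTHLH.

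The nearest tested protein-coding genes on either side of CYP24A1 and PTHLH were expressed at every stage, at 12.7 CPM or more in all 8 libraries. For CYP24A1 they were PFDN4, 33.9 kb away, with a log2 fold change of 0.51 in hPFE against hAFE (edgeR adjusted p = 0.0604), and ZNF217, 543.5 kb away, with −0.09 (edgeR adjusted p = 0.835). For PTHLH they were KLHL42, 155 kb away (−0.26, edgeR adjusted p = 0.302), and CCDC91, 160.5 kb away (−0.07, edgeR adjusted p = 0.862). The antisense gene AC008011.2 within PTHLH had 2 counts in all. CYP27B1 overlaps METTL1 on the same strand, which had 527 counts against its 122. VDR overlaps AC121338.2 on the other strand, with 64 counts against 58, and PTH1R overlaps MYL3 on the other strand, with 69 against 37. GCM2 overlaps AL357497.1 on the other strand, with 10 counts against 12, and AL024498.2 on the other strand, with 2. The libraries keep strand, but the strand setting of the counting is not given, so low counts of these overlapping genes are uncertain.

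The annotated transcripts of the 8 genes shared 0 words of 25 bases in any pair. The deposited posterior SD of the count was 0 for all 8 genes in all 8 libraries. CYP24A1 has 6 annotated transcripts of 380 to 3262 bases, and its deposited mean transcript length was 1767 bases in hPFE replicate 1 and 1914 in replicate 2. PTHLH has 9 of 457 to 1891 bases, with a mean length of 1309 and 1418. The 2 hPFE libraries were thus close in this measure for both genes, and which transcripts were present was not analysed here.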

How the data were processed

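RNA was depleted of ribosomal RNA and made into strand-specific paired-end libraries, per the labels' protocols. The deposited tables are RSEM gene output. The submitters' processing notes give RSEM, DESeq2 and the build hg38, with no version of either tool. Which aligner was run was not given in the sources used here. Expected counts of the authors are estimated counts, and the deposited TPM values allow for transcript length, per the file headers. The deposited transcript lengths and posterior SDs were read as other columns. Each table held 58780 gene rows, matched to GENCODE 29, and 746 other rows at 0.

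Expected counts were rounded, and filterByExpr kept 17446 genes. An edgeR 4.0.16 fit (R 4.3.3, TMM, quasi-likelihood, Benjamini-Hochberg, threshold 0.05) covered 8 libraries with 4 residual degrees of freedom; the SE is the log2 fold change divided by the square root of F. The step was tested on simulated data. Alternatives used DESeq2 1.42.0, limma 3.58.1 with a pseudocount of 1 on TPM, other scaling and filters, fewer libraries and a replicate block. Intervals are exact binomial and, like the floor of 3 counts, cover counting error only.

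Genes and lists were chosen with earlier results of these data known. From each list and comparison described, up to 3 called genes of largest change at a mean of 1 CPM or more in the higher stage and up to 2 best expressed others were named; 1 list gene is not reported here. Defining markers and genes of the axis named beside them (such as GATA3, RXRA, KL, FOXN1, TP63 and TRPV6) were chosen after their values were seen. So were the called genes SLC8A1, ATP2B1, GLI1 and SMAD3.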

Additional observations from a re-analysis of the deposited data

How the results depend on the processing

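No called result reversed under the alternatives run. Among the 6 genes named by role, the count called stayed at 0 in each comparison and alternative, most of which tested CYP27B1 alone, except in hPFE against hESC, where leaving out 1 library in turn gave 0 to 1; the 1 was VDR without hPFE replicate 1. Over all genes, hPFE against hAFE gave 1306 calls, 3234 with no count filter, 52 with only the 4 libraries compared and 812 with limma on log2(TPM + 1). Leaving out each library in turn gave 3695 to 3987 calls in hDE against hESC in place of 7304, 2435 to 4314 in hAFE against hDE in place of 5267, and 3822 to 7632 in hPFE against hESC in place of 7842; the library left alone in its stage is given the spread of the other stages. The cause was not tested. On log2(TPM + 1) the median of all genes moved to −0.268, 0.496, 0.137 and 0.362 in the 4 comparisons. Replicate numbers shared only a label: correlations of deviations between same-numbered libraries ran from −0.0434 to 0.0605. With the number as a replicate block, 6909, 4941, 1072 and 7494 genes were called, 0 of the genes named by role among them. CYP24A1 and PTHLH were not tested. Depth limits the lowest genes: over the libraries of a stage, 0 counts allow up to 0.0873 CPM (hESC), 0.120 (hDE), 0.104 (hAFE) or 0.0988 (hPFE), so PTH, CASR and GCM2 cannot be ranked below these levels.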
